A study of Oryza sativa with 12 samples.

Results

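The genes described here are the kinesins, cyclins, cyclin-dependent kinases (CDKs) and DNA replication genes of rice, followed in flag leaves on 12 Affymetrix rice arrays. They were found by name: a RefSeq symbol or synonym, with or without the prefix Os, that starts with KIN and a number, CYC, CDK, MCM, RFC or PCNA, on a probe set that the array annotation ties to exactly 1 gene. Of 98 RefSeq genes with such a name, 87 had a probe set. Another 4 of these carry the letters by coincidence and were set aside: RPS3A (alias CYC07), a ribosomal protein gene, CPS2 and CPS4 (aliases CYC2 and CYC1), diterpene cyclase genes, and KIN17, which is no kinesin. This left 83 members of 17905 genes measured: 33 kinesins, 25 cyclins, 11 CDKs, 8 MCM genes, 5 RFC genes and PCNA. Each gene was represented by its brightest probe set, by the mean of 12 arrays.

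Cell division in plants is driven by CDKs, protein kinases that act only when bound to a cyclin. D-type cyclins act at entry into the cycle, A-type cyclins from DNA synthesis onwards and B-type cyclins, together with the plant-specific B-type CDKs, at mitosis. Before DNA synthesis the MCM2 to MCM7 helicase is loaded at origins, and during synthesis RFC, a multi-subunit clamp loader, places the sliding clamp PCNA on DNA. RFC and PCNA also serve DNA repair. Several CDKs and cyclins act in transcription or RNA processing rather than in the cycle itself. Examples are CDKC with cyclin T, CDKE with cyclin C and CDKG with cyclin L. CDKD with cyclin H, the CDK-activating kinase, acts both in the cycle and in transcription. Kinesins are motors on microtubules: some build the spindle or the phragmoplast, the structure that lays down the new cell wall, while others work in cells that no longer divide. A flag leaf is the last leaf below the panicle, and by the preanthesis stage sampled here its blade is a mature, photosynthetic organ. Cytokinin, the hormone whose synthesis the transgene drives, is known for promoting cell division.

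Flag leaves came from greenhouse plants aged 10 weeks. The group labelled IPT_stressed carried PSARK::IPT and went 3 days without water; in this construct the gene for isopentenyltransferase, an enzyme of cytokinin synthesis, stands behind a promoter that is active in ageing tissue. The group labelled IPT_watered carried the same transgene and was watered. The groups labelled WT_stressed and WT_watered were wild type, without water for 3 days and watered. Each of the 4 groups held 3 arrays, which the labels call biological replicates, so n = 3 per group. Nothing in the labels says how many transformation events the PSARK::IPT plants represent, nor whether leaves were pooled. All values are log2 RMA values as deposited. RMA subtracts background, is meant to bring arrays to a common scale and reduces each probe set to a single value. The deposited arrays still differed in their spread over probe sets, as given below.

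The labels were checked against features of the arrays. The reporter probe set RPTR-Os-K01193-1_at, for a foreign sequence, read 9.86, 10.37 and 10.26 in IPT_stressed against 2.15, 1.99 and 2.11 in IPT_watered, and 9.03, 8.71 and 9.19 in WT_stressed against 2.06, 2.35 and 6.03 in WT_watered. Its level went with the label for water rather than the label for genotype, and whether the transgenic plants carry that sequence is not stated. Group names are accordingly those of the labels. The standard deviation over probe sets was 2.17 to 2.22 on arrays labelled IPT, against 1.91 to 1.97 in WT_stressed and 2.04 to 2.09 in WT_watered. The 3' GAPDH probe set, a sign of RNA integrity and labelling, exceeded the 5' one by 3.86 in IPT_stressed and 3.64 in IPT_watered, against 6.90 in WT_stressed and 5.99 in WT_watered. The 21 Bio spike-in probe sets averaged 8.45 in IPT_stressed and 8.42 in IPT_watered, against 11.8 in WT_stressed and 10.9 in WT_watered. These features moved with the labelled genotype. Their part in any genotype difference below was not tested beyond a GAPDH covariate fit and quantile normalization, which gives all arrays the same distribution. The median change over all genes, IPT_stressed against WT_stressed, was 0.31 as deposited and 0.09 with quantile normalization.

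Leaf markers stood high: 5 of 6 genes for the small subunit of Rubisco, Rubisco activase and chlorophyll-binding proteins were above background, and the mean over the 6 was 11.3 in IPT_stressed, 11.1 in IPT_watered, 11.3 in WT_stressed and 11.2 in WT_watered. Of 6 shoot apex genes (OSH1, OSH6, OSH43, OSH71, LAX1 and FON1), which mark meristems, only FON1 was above background, and OSH1 averaged 2.22, 2.33, 2.76 and 2.68 in the same 4 groups. Panicle and floral organ genes were above background in 4 of 14 cases, 1 of them matched only through a name that 2 genes share, and anther and meiosis genes in 3 of 10. MADS1 was higher in IPT_stressed than in WT_stressed (log2 change 2.19) and in IPT_watered than in WT_watered (1.20), MADS16 likewise (0.90 and 0.90), and MADS4 lower (-1.15 and -0.68), all called by limma. The part of these floral genes in the genotype differences below was not tested.

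Of the 83 members 38 had a mean over 12 arrays that did not exceed a background level set from foreign sequence. Some of these, such as MCM2 and KIN8B, still passed the level of a group in IPT_watered. The background level was taken from 106 probe sets for sequences that rice leaves should lack: the 95th percentile of their means over 12 arrays was 3.68. Above it lay 45 of 83 members (54.2%), against 13097 of 17905 genes measured (73.1%). The same level within each group was 3.34 in IPT_stressed, 3.15 in IPT_watered, 4.10 in WT_stressed and 3.62 in WT_watered, and 36 members passed it in all 4 groups while 50 passed it in at least 1. Members just inside were KIN7D (3.69), KIN14O (3.72) and KIN14H (3.76), and just outside were KIN7K (3.65), KIN5C (3.61) and KIN8B (3.56). A probe set at background sets only a bound: it may miss a transcript that is present, and in a whole leaf fewer cells with a transcript and less of it per cell cannot be told apart.

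The classes split unevenly. All 5 RFC genes and PCNA were above background, as were 10 of 11 CDKs. Among cyclins the count was 13 of 25, with 6 of 9 D-type, 6 of 9 of the C, H, L, T, P and F types, and 1 of 7 A- and B-type. Kinesins were above background in 15 of 33 cases and MCM genes in 1 of 8, the exception being MCM9, which is known for a role in recombination and not as part of the replicative helicase.

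**Figure D1:**
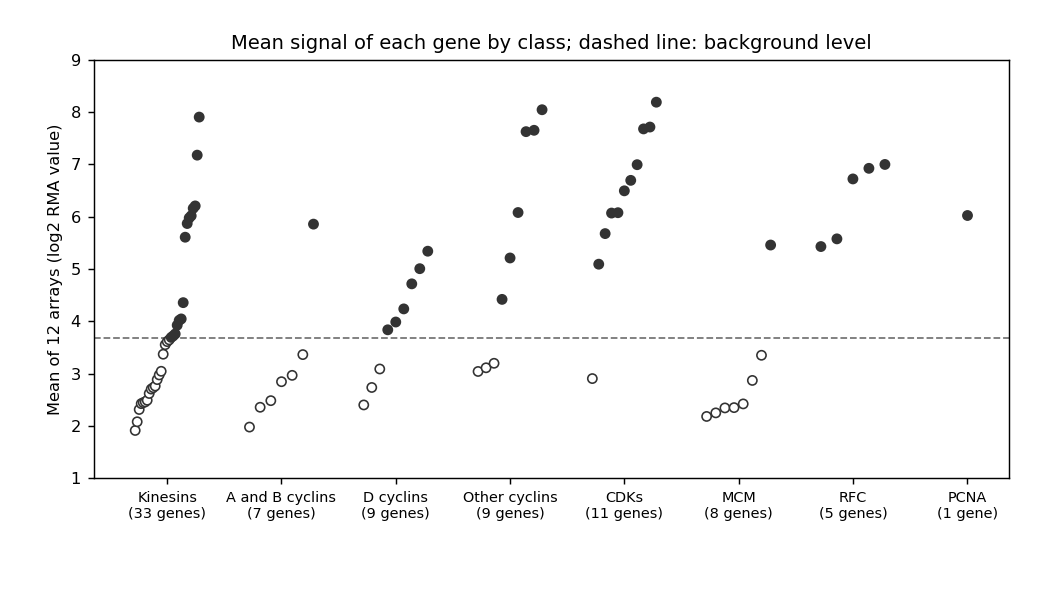
Mean over 12 arrays (log2 RMA value) of each of the 83 members by class, 1 point per gene; filled points lie above the background level of 3.68 (dashed line) and open points at or below it. All 6 RFC and PCNA points are filled, whereas 7 of 8 MCM points and 6 of 7 A- and B-type cyclin points are open.

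Some members at background have roles in mitosis; those given here were chosen after their values were seen, as examples and not as a count over a defined set. CYCB1-1, a B-type cyclin, averaged 2.32 ± 0.12 in IPT_stressed, 2.39 ± 0.18 in IPT_watered, 2.63 ± 0.45 in WT_stressed and 2.60 ± 0.24 in WT_watered (SD, n = 3 each), below the level in every group. CYCB1-3, CYCB2-1 and CYCB2-2 were likewise at background, as was CDKB2-1, the only B-type CDK among the members, at 2.80 ± 0.17, 2.82 ± 0.24, 3.03 ± 0.29 and 2.98 ± 0.47 (SD, n = 3 each) in the 4 groups in the same order. KIN5A, a spindle kinesin, averaged 2.10, 2.10, 2.58 and 2.49. KIN7A (alias NACK), a kinesin of the NACK type that expands the phragmoplast, averaged 2.53, 2.60, 2.70 and 2.66, and KIN10A (alias STD1) averaged 2.83, 2.82, 3.28 and 2.98. The phragmoplast kinesins KIN12C and KIN12E were at background too. The 1 A- or B-type cyclin above background was CYCA1-4, at 6.10 ± 0.13, 6.02 ± 0.05, 5.54 ± 0.66 and 5.78 ± 0.23 in the 4 groups.

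Of the MCM2 to MCM7 helicase genes, MCM2 alone came near the level. It read 3.66, 4.05 and 3.29 in IPT_stressed and 4.03, 4.33 and 3.74 in IPT_watered, against 2.59, 3.21 and 2.07 in WT_stressed and 2.83, 2.99 and 3.45 in WT_watered. The means of both IPT groups lay above their background levels and those of both WT groups below theirs. MCM3 to MCM7 had means over 12 arrays at or under the level in every group.

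The first genotype comparison set IPT_stressed against WT_stressed, to ask how the labelled genotypes differ without water. Among all probe sets 46.1% were called at an adjusted p under 0.05 (limma, Benjamini-Hochberg over 57194 probe sets), 19.3% higher and 26.7% lower in IPT_stressed. Of the 83 members 32 were called, 23 higher and 9 lower. All members above background that were called were higher, 22 of 45 with a median change of 0.55 on the log2 scale, and all 9 called lower were at background. The same split ran through all genes: 5959 of 13097 genes above background were called higher (45.5%, median change 0.52) and 612 lower, while at background 350 of 4808 were called higher and 1127 lower (23.4%, median change -0.21). The members' shares (48.9% higher above background and 23.7% lower at background) are near those of all genes, so the counts themselves say nothing particular about cell division genes. With the median of each array set equal, the members' split became 32 higher and 3 lower, since under that scaling the median over all probe sets shifted by 0.23.

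RFC1 to RFC5, the clamp loader genes, were all called higher in this comparison, with changes of 0.66 to 1.43 and a median of 0.97. With quantile normalization RFC2 and RFC3 kept their calls, while RFC1 (0.24, adjusted p = 0.22 by limma), RFC4 (0.14, adjusted p = 0.69 by limma) and RFC5 (0.43, adjusted p = 0.16 by limma) did not pass. The call of RFC4 was also lost without any one of the 3 IPT_stressed arrays or WT_stressed replicates 2 or 3, with changes of 0.50 to 0.69. RFC2, a small subunit of the clamp loader, read 7.33, 7.52 and 7.42 in IPT_stressed against 6.14, 5.99 and 5.86 in WT_stressed, 2.69-fold higher (log2 change 1.43, SE 0.12, adjusted p = 1.46e-05 by limma). RFC3, another small subunit, read 7.58, 7.54 and 7.47 against 6.48, 6.28 and 5.74 and was 2.57-fold higher (log2 change 1.36, SE 0.18, adjusted p = 0.000175 by limma). RFC1, the large subunit, read 7.07, 7.07 and 6.93 against 5.98, 6.39 and 6.29 (log2 change 0.80, SE 0.13, adjusted p = 0.000727 by limma). In none of the 3 did the arrays of the 2 groups overlap, which is no further evidence, since the calls rest on the same arrays. PCNA, the clamp that RFC loads, did not pass: it read 6.00, 6.00 and 6.13 in IPT_stressed against 5.92, 5.93 and 5.77 in WT_stressed (log2 change 0.17, SE 0.20, adjusted p = 0.50 by limma). MCM9 was higher in IPT_stressed at 5.50, 5.94 and 5.61 against 4.67, 4.72 and 5.18 in WT_stressed (log2 change 0.83, SE 0.17, adjusted p = 0.00283 by limma), although its second probe set gave 0.16 and did not pass. The dimmest MCM9 probe set, at background over 12 arrays, gave 0.77 (adjusted p = 0.0206 by limma). MCM2 was called higher too (log2 change 1.04, SE 0.29, adjusted p = 0.0126 by limma), with no fold given because its IPT_stressed mean of 3.67 lay under the WT_stressed background level; without IPT_stressed replicate 2 it did not pass (0.85, adjusted p = 0.0514 by limma). The call of MCM9 was lost with quantile normalization (0.34, adjusted p = 0.18 by limma).

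**Figure D2:**
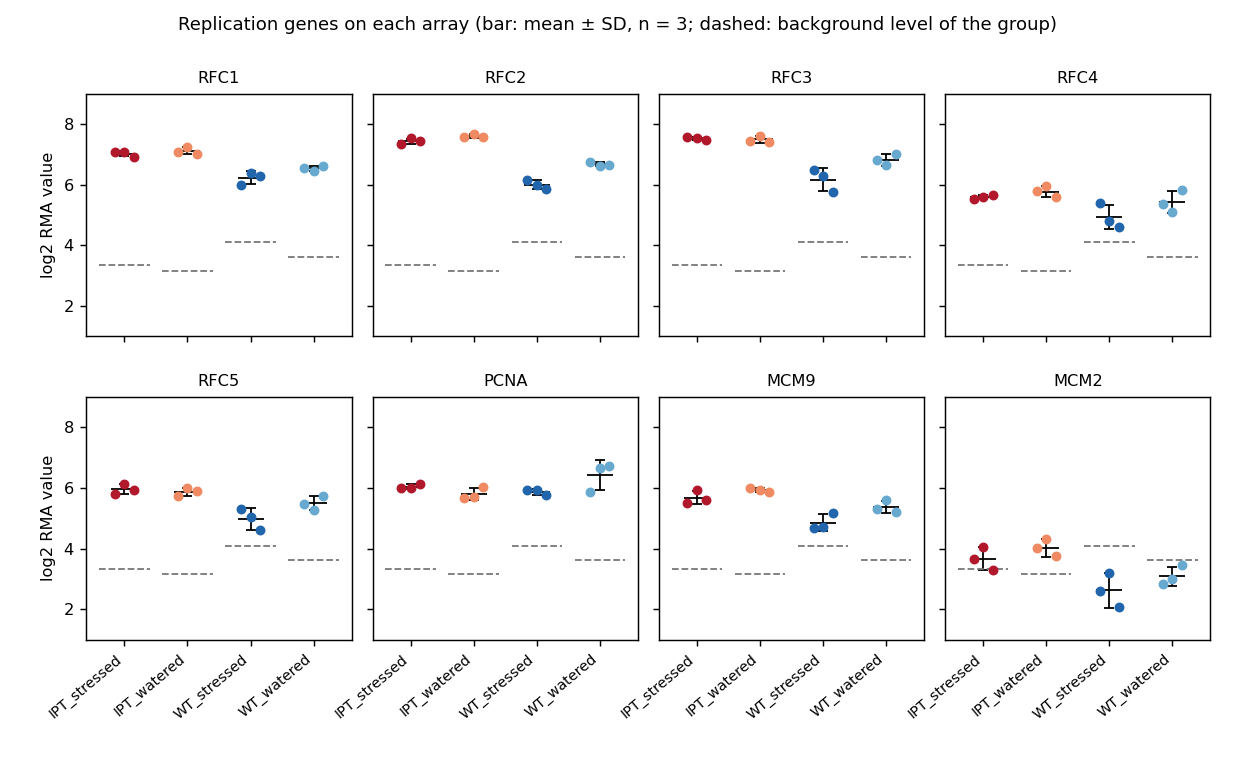
Log2 RMA values of 8 replication genes on each array, 3 points per group, with the mean and SD (n = 3) as a bar and the background level of each group as a dashed line. The RFC genes and MCM9 are highest in the IPT groups and lowest in WT_stressed, PCNA is highest in WT_watered, and MCM2 passes the background level in the IPT groups only.

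Of the 10 CDKs above background 5 were called higher in IPT_stressed and none lower, with a median change of 0.55. With quantile normalization CDKF-3 alone of the 5 kept its call, CDKF-1, CDKG-2, CDKA-2 and CDKC-1 having changes of 0.36, 0.30, 0.38 and 0.08, and the median over all 11 CDKs was 0.04. CDKF-3 differed most. It read 7.28, 7.64 and 7.58 in IPT_stressed against 5.05, 5.56 and 5.21 in WT_stressed, 4.67-fold higher (log2 change 2.22, SE 0.31, adjusted p = 0.00025 by limma). CDKF-1, of the family that in Arabidopsis activates other CDK-activating kinases, read 7.02, 7.24 and 7.25 against 6.30, 6.18 and 6.29 (log2 change 0.91, SE 0.15, adjusted p = 0.000673 by limma). CDKC-1, a kinase of the transcription elongation complex, had a change of 0.68 (SE 0.15, adjusted p = 0.00432 by limma), and CDKG-2, of a family tied to RNA splicing in Arabidopsis, also 0.68 (SE 0.21, adjusted p = 0.0194 by limma). The 2 groups did not overlap in any of these 4 genes, again no further evidence beside calls from the same arrays. CDKG-2 did not pass without WT_stressed replicate 2 (0.45, adjusted p = 0.0667 by limma) or IPT_stressed replicate 2 (0.63, adjusted p = 0.0603 by limma). CDKA-2, an A-type CDK of the cell cycle proper, was the fifth called member, at a change of 0.80, and did not pass without IPT_stressed replicates 2 or 3 or WT_stressed replicates 2 or 3 (0.60 to 0.85). CDKA-1, the other A-type kinase, averaged 6.08 ± 0.07 in IPT_stressed and 5.97 ± 0.33 in WT_stressed and did not pass (adjusted p = 0.56 by limma). CDKD-1, CDKE-1, CDKG-1 and CDKF-4 did not pass either, with changes of 0.27, 0.32, 0.43 and -0.01.

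Among cyclins above background 7 of 13 were called higher in IPT_stressed and none lower, with a median change of 0.57. CYCH-1, the cyclin of the CDK-activating kinase, read 5.80, 5.86 and 5.73 in IPT_stressed against 4.54, 4.36 and 4.08 in WT_stressed, 2.77-fold higher (log2 change 1.47, SE 0.13, adjusted p = 2.47e-05 by limma). CycT1;2, a T-type cyclin, read 6.59, 6.60 and 6.64 against 5.18, 5.42 and 5.31 and was 2.47-fold higher (log2 change 1.31, SE 0.17, adjusted p = 0.000158 by limma). CycT1;4, its relative, read 8.09, 7.83 and 8.05 against 7.23, 7.31 and 7.05 (log2 change 0.79, SE 0.14, adjusted p = 0.00126 by limma). All 3 have partners that act in transcription, and the partner of CYCH-1 also acts in the cycle as the CDK-activating kinase. The D-type cyclins CYCD5-3 and CYCD3-1, of the class that acts at entry into the cycle, were also called, and both lay at background in WT_stressed. CYCD5-3 read 5.16, 5.89 and 5.27 in IPT_stressed against 3.99, 4.31 and 3.71 in WT_stressed, at least 2.54-fold higher (adjusted p = 0.000813 by limma). CYCD3-1 read 4.66, 4.77 and 4.79 against 3.42, 3.56 and 3.78, at least 1.56-fold higher (adjusted p = 0.00409 by limma). CYCD4-2 and CYCP3-1 complete the count of 7. CYCD4-2 did not pass without IPT_stressed replicate 2 (0.72) or WT_stressed replicates 2 (0.94) or 3 (0.85), nor CYCP3-1 without IPT_stressed replicates 1 (0.52) or 2 (0.53) or WT_stressed replicates 1 (0.41) or 2 (0.52). With quantile normalization 5 of the 7 cyclins kept their calls, CycT1;4 and CYCP3-1 not passing at 0.37 and 0.47. CYCL1-1, at 7.70 ± 0.05 and 7.57 ± 0.20, CycC1;1, at 8.20 ± 0.29 and 8.03 ± 0.27, and CYCD6-1, at 4.49 ± 0.26 and 4.41 ± 0.62 (IPT_stressed and WT_stressed, SD, n = 3 each), did not pass. CYCD5-1 had the only negative change among the 13 cyclins, -0.32, and did not pass. Among the 12 cyclins at background 4 were called lower, the largest call being CYCD4-1 at a change of -0.84 (SE 0.15, adjusted p = 0.00106 by limma), with no fold because both groups were at background.

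Of the 15 kinesins above background 4 were called higher in IPT_stressed and none lower. Their median change was 0.09, against 0.52 for all genes above background. That contrast depended on signal level: for the 8 kinesins with a mean of at least 5 the median was 0.75, against 0.54 for genes at that level. KIN13A (alias SRS3), a kinesin-13 whose mutation gives small round seeds in rice, read 6.58, 6.69 and 6.70 in IPT_stressed against 4.91, 5.60 and 4.64 in WT_stressed, 3.05-fold higher (log2 change 1.61, SE 0.20, adjusted p = 0.000123 by limma). Its second probe set gave a change of 3.10. KIN7F, of the kinesin-7 family, read 6.20, 5.75 and 5.88 against 4.47, 4.996 and 5.08 (log2 change 1.10, SE 0.24, adjusted p = 0.00383 by limma). KIN14L, a kinesin-14, the family of minus-end-directed motors, read 8.35, 8.60 and 8.39 against 6.47, 7.04 and 8.26 (log2 change 1.19, SE 0.34, adjusted p = 0.0146 by limma). The groups did not overlap in these 3 genes, though WT_stressed replicate 3 came within 0.1 of the IPT_stressed arrays for KIN14L. As above, this adds nothing to the calls. KIN7C was the fourth call. With quantile normalization KIN13A alone of the 4 kept its call, KIN14L, KIN7C and KIN7F having changes of 0.76, 0.57 and 0.60 with adjusted p of 0.0979 to 0.10 by limma. KIN4A (aliases BC2 and GDD1), known in rice for its effect on gibberellin synthesis and cell wall order, had the most negative change, -0.51 (SE 0.34), and did not pass (adjusted p = 0.23 by limma). KIN14K, KIN14M, KIN14A and KIN13B did not pass, with changes of 0.07, 0.40, 0.10 and -0.17.

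**Figure D3:**
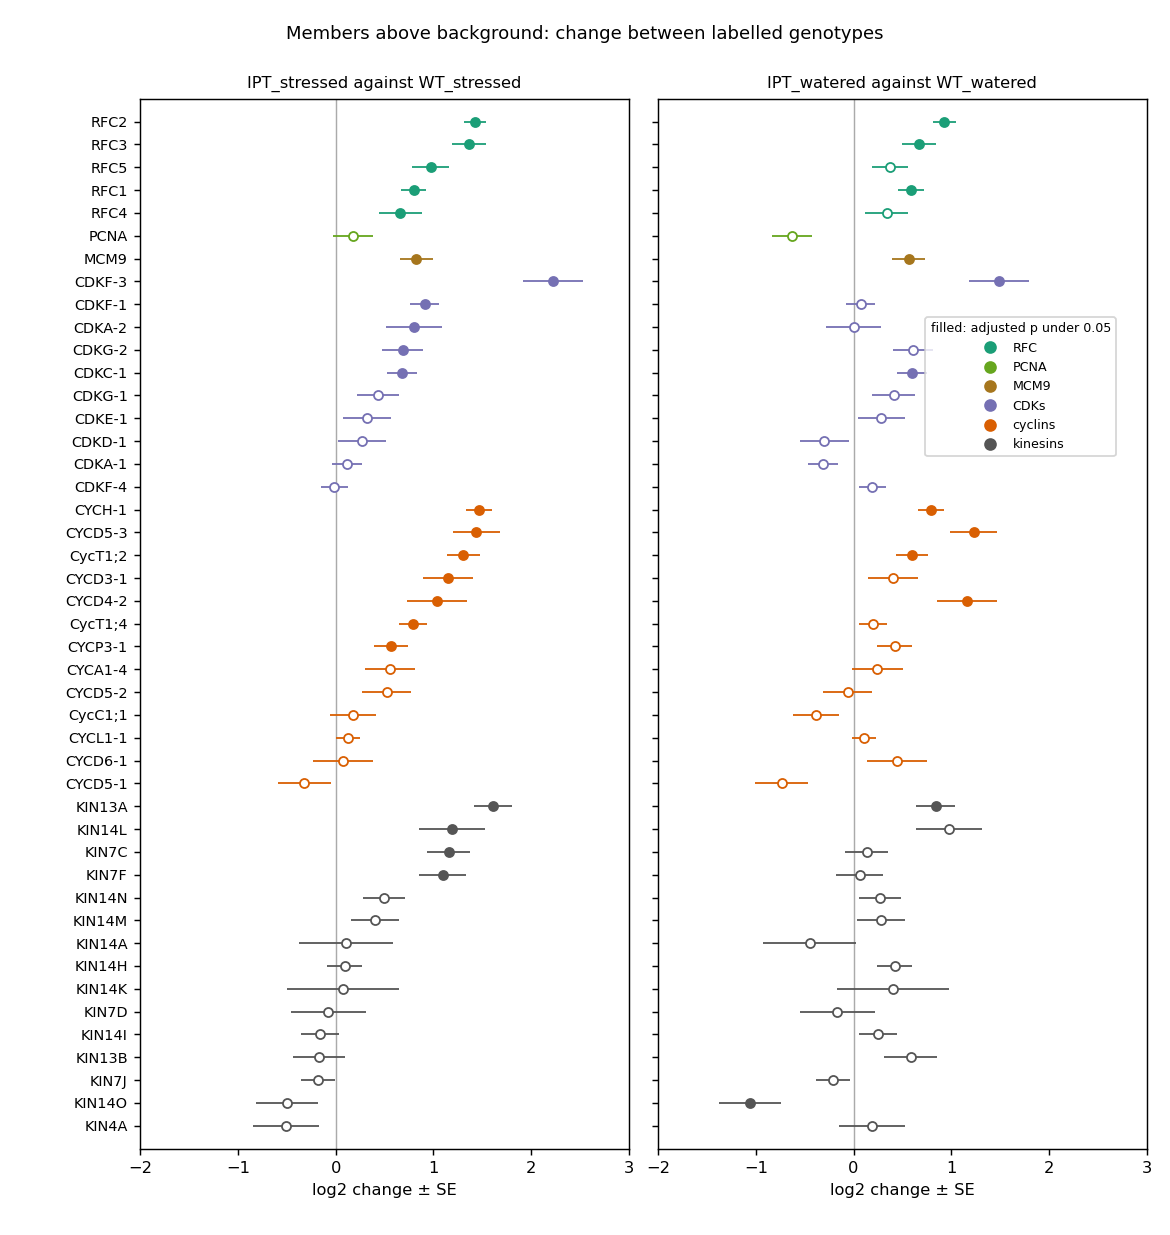
Log2 change with its SE (limma) of the 45 members above background, IPT_stressed against WT_stressed at left and IPT_watered against WT_watered at right, ordered by class; filled points passed at an adjusted p under 0.05. RFC genes lie to the right of 0 in both panels, whereas kinesins spread to both sides, with 4 called higher at left and 1 higher and 1 lower at right.

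The second genotype comparison set IPT_watered against WT_watered. Among all probe sets 19.2% were called, 10.3% higher and 8.9% lower in IPT_watered. Of the 83 members 16 were called, 13 higher and 3 lower. Above background the counts were 11 higher and 1 lower of 45, with a median change of 0.29, against 2461 higher (18.8%) and 721 lower of 13097 genes with a median of 0.19. Leaving out IPT_watered replicate 2 left 6 members called and leaving out IPT_watered replicate 1 left 8. With quantile normalization 7 of the 16 kept their calls, RFC1, RFC3, MCM9, CDKC-1, CycT1;2, KIN13A and KIN14O being among those that did not. Of the 13 members called higher, 12 were also called higher without water, and the other one was KIN8B. The 2 genotype comparisons use different arrays, but the array features given above separate the labelled genotypes in both.

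RFC2, RFC3 and RFC1 were called again. RFC2 read 7.56, 7.68 and 7.58 in IPT_watered against 6.74, 6.62 and 6.66 in WT_watered, 1.91-fold higher (log2 change 0.93, SE 0.12, adjusted p = 0.00038 by limma). RFC3 had a change of 0.67 (adjusted p = 0.0217 by limma) and RFC1 of 0.59 (adjusted p = 0.00997 by limma). PCNA went the other way without passing: it read 5.67, 5.69 and 6.02 in IPT_watered against 5.86, 6.67 and 6.73 in WT_watered, with overlapping groups (log2 change -0.63, SE 0.20, adjusted p = 0.0502 by limma). MCM2 was at least 1.33-fold higher (adjusted p = 0.0394 by limma) and MCM9, on its brightest probe set, 1.48-fold higher (adjusted p = 0.0393 by limma). Another MCM9 probe set above background had the opposite sign, at -0.30, and did not pass (adjusted p = 0.33 by limma). The dimmest MCM9 probe set, at background over 12 arrays, gave 0.78 (adjusted p = 0.0382 by limma). MCM3 and MCM7, helicase subunits at background in both groups, were called lower with changes of -0.51 and -0.49. Of the replication genes called here RFC2 alone kept its call without any one array: without IPT_watered replicate 2 none of RFC1, RFC3, MCM2, MCM3, MCM7 and MCM9 passed, and without IPT_watered replicate 1 RFC3, MCM2, MCM3 and MCM9 did not. Leaving out WT_watered arrays ended the calls of RFC3 and MCM2 (replicates 1 or 2), MCM3 (any one) and MCM9 (replicates 1 or 3). MCM3 and MCM9 also failed without IPT_watered replicate 3, MCM9 without IPT_stressed replicate 3 and MCM2 without IPT_stressed replicate 1.

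The calls among CDKs were CDKF-3, at 7.49, 6.86 and 7.71 in IPT_watered against 6.10, 5.10 and 6.38 in WT_watered (log2 change 1.49, SE 0.31, adjusted p = 0.00651 by limma), and CDKC-1, at a change of 0.60 (adjusted p = 0.018 by limma). Among cyclins 4 were called, all higher. CYCD5-3 read 6.00, 5.90 and 5.83 against 4.97, 4.19 and 4.88, 2.34-fold higher (log2 change 1.23, SE 0.24, adjusted p = 0.00503 by limma). CYCH-1 read 5.82, 5.83 and 5.63 against 4.94, 4.96 and 4.995, 1.74-fold higher (log2 change 0.79, SE 0.13, adjusted p = 0.00207 by limma). CycT1;2 had a change of 0.60 (adjusted p = 0.0277 by limma), and CYCD4-2 was the fourth. Without IPT_watered replicates 1 or 2 CDKC-1, CycT1;2 and CYCD4-2 did not pass, nor CDKC-1 without WT_watered replicate 2, CYCD4-2 without WT_watered replicate 1 and CycT1;2 without WT_watered replicate 3 (0.39).

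The kinesins differed in direction. KIN13A read 6.64, 6.62 and 6.55 in IPT_watered against 5.68, 5.88 and 5.73 in WT_watered, 1.79-fold higher (log2 change 0.84, SE 0.20, adjusted p = 0.0124 by limma). KIN8B, of the kinesin-8 family, which acts on microtubule ends, read 4.44, 4.59 and 4.54 against 3.03, 2.79 and 3.20 in WT_watered, where it was at background, and so was at least 1.88-fold higher (adjusted p = 0.00543 by limma). Its other probe set was at background in every group and gave 0.04. KIN14O read 3.35, 3.17 and 3.56 against 4.11, 5.36 and 3.80, 2.09-fold lower (log2 change -1.06, SE 0.32, adjusted p = 0.0371 by limma), with WT_watered replicate 2 standing above the other arrays. Without that array the change was -0.59 (adjusted p = 0.0712 by limma), and the call was lost under 10 of 20 other settings, among them leaving out any one IPT_watered array (-0.97 to -1.16) or IPT_stressed replicates 1 or 3 (-1.06). KIN14L had the largest positive change among kinesins above background, 0.97 (SE 0.34), and did not pass (adjusted p = 0.0649 by limma).

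Changes between labelled genotypes depended on how bright a gene was. Over all genes the median change of IPT_stressed against WT_stressed was -0.23 at a mean signal under 2.5, 0.44 between 3.68 and 5, 0.70 between 5 and 6 and 0.37 over 9. The medians of the members, 0.55 above background and -0.29 at background, had the signs of those of all genes. Above the upper quartile of all genes at their signal stood 19 of 83 members (22.9%), against 4478 of 17905 genes, with 11 of 45 above background. Whether signal level or RNA integrity produces the shift was not tested. With the GAPDH difference as a covariate, which itself follows the labelled genotype, 1 member stayed called in IPT_stressed against WT_stressed (CycT1;2), and 0 in IPT_watered against WT_watered. Over all probe sets the calls under that fit were 129 (0.226%) and 39 (0.0682%) in the same comparisons, so their loss is not particular to the members.

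**Figure D4:**
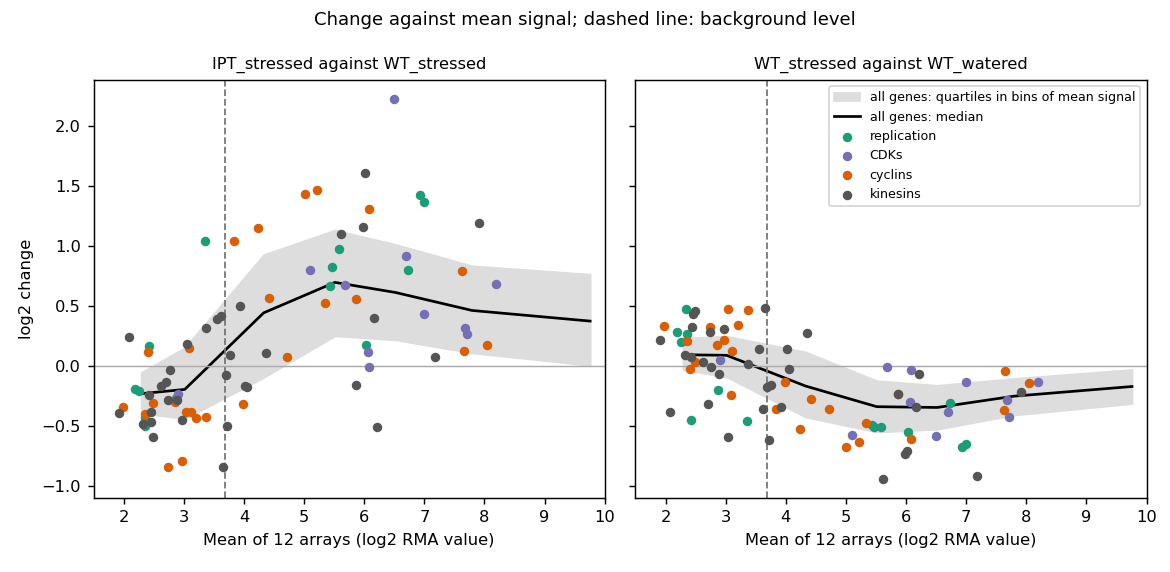
Log2 change against the mean of 12 arrays (log2 RMA value) for the 83 members, coloured by class, over the median (black line) and quartiles (grey) of 17905 genes in bins of mean signal; the dashed line is the background level of 3.68. In IPT_stressed against WT_stressed the median of all genes lies below 0 at background and reaches 0.70 between 5 and 6, and in WT_stressed against WT_watered it runs the opposite way.

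Withholding water from wild-type plants was examined next, as WT_stressed against WT_watered. Among all probe sets 0.42% were called, 0.157% higher and 0.262% lower in WT_stressed. Of the 83 members 1 was called, RFC2, which fell to 6.14, 5.99 and 5.86 in WT_stressed, against 6.74, 6.62 and 6.66 in WT_watered (log2 change -0.68, SE 0.12, adjusted p = 0.042 by limma). The groups did not overlap, yet the adjusted p was over 0.05 under 17 of 21 other settings. The number of members called was 6 without WT_stressed replicate 3, 3 without WT_stressed replicate 1, 1 without WT_stressed replicate 2 and 0 without any one array of the other groups. Changes above background were negative in 43 of 45 members, with a median of -0.36, against -0.26 for all genes above background, of which 10642 of 13097 were negative. The 2 exceptions were kinesins, KIN14A at 0.27 (SE 0.48) and KIN13B at 0.14 (SE 0.27). Among the other replication genes RFC3 had a change of -0.65 (adjusted p = 0.10 by limma), PCNA of -0.55 (adjusted p = 0.17 by limma) and MCM9 of -0.51 (adjusted p = 0.15 by limma). CYCH-1, at 4.54, 4.36 and 4.08 in WT_stressed against 4.94, 4.96 and 4.995 in WT_watered, came closest among the cyclins (log2 change -0.63, adjusted p = 0.0609 by limma). The most negative kinesin was KIN7F, at 4.47, 4.996 and 5.08 against 5.46, 6.27 and 5.65 (log2 change -0.94, SE 0.24, adjusted p = 0.0874 by limma). CYCD5-3 had a change of -0.67 and KIN13A of -0.71, and neither passed.

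WT_stressed had the lowest of the 4 group means in 33 of the 45 members above background and the highest in 0. Over all genes above background it had the lowest mean in 8435 of 13097 (64.4%, against 73.3% of the members) and the highest in 1006 (7.68%), so most genes show that order. The lowest mean fell in WT_stressed for 11 of 13 cyclins, 8 of 10 CDKs, 5 of 6 RFC and PCNA genes and 8 of 15 kinesins. IPT_watered had the highest mean in 21 members, IPT_stressed in 17 and WT_watered in 7. The arrays of WT_stressed were also the most spread, with a median SD of 0.33 over these members, against 0.14 in IPT_stressed, 0.18 in IPT_watered and 0.27 in WT_watered, and its SD over all probe sets was the smallest of the 4 groups.

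In plants labelled PSARK::IPT, IPT_stressed against IPT_watered, 0 of 83 members were called by limma, against 0.177% of all probe sets, 0.163% higher and 0.014% lower. At an unadjusted p under 0.05 stood 8 members (9.64%), against 4589 probe sets (8.02%). The median change above background was -0.004, with 22 positive and 23 negative. The genes with the largest changes were kinesins and a D-type cyclin, and none passed. KIN14K, a kinesin-14, read 6.41, 7.23 and 6.38 in IPT_stressed against 8.23, 7.88 and 7.67 in IPT_watered (log2 change -1.25, SE 0.57, adjusted p = 0.62 by limma). KIN4A read 5.37, 6.30 and 5.57 against 6.65, 6.71 and 6.18 (log2 change -0.76, SE 0.34). KIN14I (alias KCBP) had a change of -0.64. KIN13B read 3.68, 3.98 and 3.79 against 4.79, 4.29 and 4.21 (log2 change -0.61, SE 0.27). CYCD6-1 read 4.57, 4.70 and 4.19 against 5.40, 5.38 and 4.85 (log2 change -0.72, SE 0.31). On the positive side stood KIN14A at 0.83 (SE 0.48), CDKF-1 at 0.45 (SE 0.15) and CycC1;1 at 0.42 (SE 0.23). When limma weighted the arrays by their quality, 10 of 83 members were called, 1 higher and 9 lower. Under that setting 4970 probe sets were called (8.69%), 2907 higher and 2063 lower. Of 17905 genes 1805 were called higher and 1048 lower.

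The difference of the stress effects, IPT minus WT, tests whether withholding water acted differently in the labelled genotypes. By limma 0.0% of probe sets and 0 of 83 members were called. At an unadjusted p under 0.05 stood 20 members (24.1%), against 8178 probe sets (14.3%), and the difference between these shares was not tested. With limma's trend and robust options 5 probe sets and 0 members were called. The estimates above background were positive in 37 of 45 members, with a median of 0.31, against 0.32 over all genes above background. KIN7F had the largest, 1.03 (SE 0.34, adjusted p = 0.26 by limma). Next came KIN7C at 1.02 (SE 0.31, adjusted p = 0.26 by limma), CDKF-1 at 0.84 (SE 0.21, adjusted p = 0.23 by limma) and PCNA at 0.80 (SE 0.29, adjusted p = 0.28 by limma). The mean of PCNA was higher in WT_watered than in the other 3 groups. The most negative were KIN13B at -0.75 (SE 0.38) above background and KIN8B at -1.13 (SE 0.43), whose IPT_watered arrays alone were all above background. No member passed the test of a different response to water in the labelled genotypes.

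Other genes of the division machinery, 39 of them, were set beside the members. Of these 29 were above background, including 8 of 9 tubulins, all 5 histone H2B genes, 5 of 7 RPA genes, which coat single-stranded DNA, and 1 of 5 ORC genes, which mark origins. In IPT_stressed against WT_stressed 8 were called higher and 3 lower of the 29 above background, with a median change of 0.18. Of all genes above background a larger share was called higher and a smaller share lower, with a larger median change, as given for that comparison. Those called higher included FEN1A, a flap endonuclease of lagging-strand synthesis, at 2.10 (SE 0.32), POLD1, the catalytic subunit of DNA polymerase delta, at 1.55 (SE 0.20), and ORC2 at 1.10 (SE 0.15). Also called higher were RPA14, RPA70a, RPA70c, the beta-tubulin TUBB7 at 0.55, and RBR2, a retinoblastoma-related protein. The WT_stressed means of FEN1A (3.56) and RPA70c (3.98) lay under the background level of that group, 4.10. The sizes of their changes are therefore uncertain. FEN1B (-0.18) and POLD2 (0.34) did not pass. ORC3, RPA32 and RPA70b, at background, were called lower (-0.87, -0.58 and -0.56). Those called lower above background were TUBB1 at -1.04 and TUBB5 at -0.75, both beta-tubulins, and CKS1, a CDK-binding protein, at -0.86 (SE 0.30). In IPT_watered against WT_watered 3 were called higher (POLD1, ORC2 and RBR2) and 5 lower (TUBB2, TUBB5, H2B.10, H2B.5 and CKS1). There too a larger share of all genes above background was called higher and a smaller share lower. The KRP, SMR and EL2 genes, inhibitors of CDKs, gave 0 calls by limma among 6 in any of the 5 comparisons. The share of all probe sets called ran from 0.0% to 46.1% over these comparisons, and 2 of the 6 genes were at background.

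Among the 14 members with more than 1 probe set, several gave different answers by probe set. The brightest probe set of CDKF-4 did not pass in either genotype comparison, whereas a second one, at background over 12 arrays, gave 1.77 in IPT_watered against WT_watered and 1.42 in IPT_stressed against WT_stressed. CYCD5-2 had a second probe set with -1.21 and -0.96 in the same comparisons, against -0.06 and 0.52 on the brightest. CycC1;1 had a second probe set with 1.81 in IPT_stressed against WT_stressed, against 0.18. For CDKG-2 all 3 probe sets were positive in both genotype comparisons, at 0.61 to 1.35 in IPT_watered against WT_watered and 0.68 to 1.07 in IPT_stressed against WT_stressed. In 9 members the probe set used carries a suffix that marks probes shared with other transcripts, among them CDKA-2, MCM9, MCM8, KIN8B and KIN14K, so their signal may include near-identical sequences.

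The 4 genes set aside gave these values in IPT_stressed against WT_stressed. RPS3A had a change of 0.64, KIN17 of 0.80 and CPS2 of -0.40, and CPS4 read 5.57, 3.52 and 5.76 in IPT_stressed against 2.22, 2.32 and 4.53 in WT_stressed. They enter none of the counts above.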

How the data were processed

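Total RNA from flag leaves was hybridised to 12 Affymetrix rice arrays, 3 in each of 4 groups taken from the titles and characteristics in the labels. The authors deposited log2 values made by RMA, per the submitters' processing notes; the software and its version are not given in the sources used here. Gene names came from the annotation of the array, updated to RefSeq symbols of assembly ASM3414082v1, which was used for names only; no sequences or positions were used here.

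The members and all gene lists were chosen with earlier results of these data known. Probe sets of array controls and reporters were left out, and 1 mean per group was fitted over all 12 arrays at 57194 probe sets with lmFit and eBayes of limma 3.58.1 in R 4.3.3. The 5 comparisons were contrasts of that fit, with Benjamini-Hochberg adjustment over all probe sets and a threshold of 0.05. The code was tested on simulated data. Nothing in the labels says whether replicates came from separate plants or pools. The p-values therefore set differences against the spread between these arrays, whose number limits the precision. For each probe set that spread was 1 estimate shared by all 4 groups, so the SE of a comparison also draws on arrays outside it. KIN14K, for example, had an SD of 1.45 in WT_stressed, which enters its SE in IPT_stressed against IPT_watered. An exact permutation test of 3 arrays against 3 cannot go below p = 0.1.

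The background level was the 95th percentile of the means of 106 foreign probe sets. A fold was given as a bound where the dimmer group was at background, and not at all where both were. Genes were named where they were called (the 10 smallest adjusted p where over 10 were), were among the 4 with the highest mean of their class, or had the largest rise or fall of their class above background. Members named beyond that were chosen after their values were seen, for their role or to complete a count. Levels of different probe sets were not compared. Alternatives covered scaling, dim probe sets, the variance model, the arrays fitted, the replicate number, the probe set used, a GAPDH covariate and each array left out in turn.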

Additional observations from a re-analysis of the deposited data

How the results depend on the processing

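The counts of called members depended on the settings. In WT_stressed against WT_watered the 1 call became 4 with array medians equal and 0 with quantile normalization, a minimum mean of 5, limma's trend and robust options, array weights, only the 6 arrays of the comparison, the replicate block or the GAPDH covariate, and leaving out 1 array gave 0 to 6. In IPT_stressed against IPT_watered array weights gave 10 in place of 0 (8.69% of all probe sets, against 0.177%), and leaving out 1 array gave 0 to 1. In IPT_watered against WT_watered the 16 calls became 9 with quantile normalization (7 shared; 14.4% of all probe sets, against 19.2%), 10 with a minimum mean of 5 and 0 with the GAPDH covariate, and leaving out 1 array gave 6 to 21. In IPT_stressed against WT_stressed the 32 calls became 20 with quantile normalization (13 shared; 26.9% of all probe sets, against 46.1%), 19 with a minimum mean of 5 and 1 with the GAPDH covariate, and leaving out 1 array gave 22 to 36. The minimum mean tests fewer members; the cause of the other shifts was not tested. With the GAPDH covariate the changes of CDKA-2 (-0.67), RFC4 (-0.42) and KIN5A (0.24) in IPT_stressed against WT_stressed had the opposite sign. The difference of the stress effects gave 0 calls throughout.

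Of 18 same-number pairs 9 correlated over 0.1, against 1 of 36 other pairs, an excess that hints at shared structure. The main fit did not take it into account, and whether the numbers pair the arrays was not settled. The replicate block gave 19 calls in IPT_watered against WT_watered and 31 in IPT_stressed against WT_stressed. Members above background numbered 45, with 32 at the 99th percentile, 61 with bacterial controls alone, 33 at a fixed level of 5, 36 above in all 4 groups, 50 in at least 1, 46 after quantile normalization, 38 with the dimmest probe set, and 43 to 46 without 1 array.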
